A study of Mus musculus with 16 samples.

Results

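Mitochondria import nearly all of their proteins from the cytosol, and the genes described here code for the machines that do so. They were taken by symbol from the deposited gene counts: every mouse gene named Timm or Tomm with a number, with or without letters after it, together with Samm50, Pam16, Dnajc19, Grpel1 and Chchd4, and without pseudogenes. This rule found 31 of the 25006 genes counted, of which 30 code for proteins and 1, Tomm6os, is an antisense RNA whose symbol meets the same rule. The counts came from RiboTag libraries of substantia nigra pars compacta (SNc) dopaminergic neurons, in which a tagged ribosomal protein was immunoprecipitated with the mRNA it carried. The tag, a Myc and DDK (Flag) fusion of Rpl22l1, came from an adeno-associated virus injected on both sides of the brain and was switched on by Cre recombinase, which was driven by the dopamine transporter (DAT) gene. Control mice were DAT-Cre +/- and MCU-KO mice were DAT-Cre+/- MCU fl/fl, so both groups carried the Cre driver and the tag. The MCU-KO mice also carried floxed alleles of Mcu, the pore of the mitochondrial calcium uniporter. Per the study's methods, the control mice came from DAT-Cre+/+ and C57/BL6 parents, a cross without the floxed line. Loss of Mcu and breeding line thus cannot be told apart in the comparison of genotypes. There were 8 mice of each genotype with 1 library per mouse, all at postnatal day 45, with tissue taken 30 days after the injection.

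The TOM complex of the outer membrane is the common entry gate. Its receptors bind arriving precursors and pass them to the channel formed by Tomm40. Beyond it the routes part: the SAM complex inserts barrel-shaped proteins into the outer membrane, the MIA pathway traps small cysteine-rich proteins between the membranes, and small TIM chaperones carry hydrophobic precursors to the TIM22 complex, which inserts carrier proteins into the inner membrane. Proteins with a cleavable leader cross the inner membrane through TIM23 and are pulled into the matrix by the PAM motor. SNc dopaminergic neurons maintain long, highly branched axons, in which mitochondria depend on proteins made in the cytosol.

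The libraries held 14129527 to 22016362 counted reads, the median being 20505890 in control and 20328118 in MCU-KO mice, and MCU-KO mouse 8 had the lowest total. Levels below are normalized counts, that is, raw counts over the DESeq2 size factor of each library. All 8 dopaminergic marker genes were counted, and their summed level was 12250 to 15250 CPM (counts scaled to the library total) in control and 10750 to 17430 in MCU-KO mice. The summed CPM of 6 oligodendrocyte markers ran from 2788 to 5548 in control and from 3326 to 6589 in MCU-KO mice, that of 6 astrocyte markers from 326 to 665.4 and from 451.9 to 908.1, and that of 6 microglial markers from 43.03 to 131.9 and from 32.6 to 246.1, so RNA of other cells was present in both genotypes. No marker of any list had an adjusted p under 0.05 (edgeR). At an unadjusted p under 0.05 edgeR gave 1 marker, against 4.41% of all genes. It was the astrocyte gene Slc1a2, with a log2 fold change of 0.31 ± 0.15 (SE; unadjusted p of 0.0457). The part of these cells in the results below was not tested. Mcu itself had 120.3 to 828.2 normalized counts in control mice (median 401.0) and 5.82 to 410.1 in MCU-KO mice (median 246.3). The genotypes thus overlapped in Mcu. Its log2 fold change of -1.19 ± 0.59 (SE) had an unadjusted p of 0.0569 and an adjusted p of 1.0 (edgeR). By DESeq2 the unadjusted p was 0.0405 and the adjusted p 0.795. These counts, which also include exons outside the floxed segment, thus do not by themselves separate the genotypes. The study verified the loss of Mcu by qRT-PCR on RiboTag mRNA, and by a smaller mitochondrial calcium response to stimulation. In bulk samples of this kind, fewer cells of a type and less RNA per cell cannot be told apart.

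The import machinery was well represented in the RiboTag libraries, which also held RNA of other cells. Of the 31 genes, 29 passed the filter on low counts. The remaining 2, Tomm20l, a relative of the receptor Tomm20, and Timm8a2, a relative of the small chaperone Timm8a1, had 0 counts in all 16 libraries, which allows at most 0.136 to 0.212 CPM (3 counts) per library. The reads carry no molecular identifiers, so this limit covers counting error only. To compare genes, normalized counts were divided by the length of the annotated exons in kilobases (kb). On that scale, the median import gene stood above 86.0% of the genes tested in control mice, and 25 of the 29 stood above the median gene.

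The highest level per kb of exon belonged to Timm8b, a small chaperone of the space between the membranes, with 15083 ± 1851 (SD, n = 8) normalized counts per kb in control mice, above 99.6% of genes tested. It was followed by Tomm7, a small subunit that tunes the assembly of the TOM complex, with 4497 ± 507 per kb, by the small chaperone Timm13 with 4111 ± 596, and by Tomm6, another small TOM subunit, with 3314 ± 582. The gap between Tomm7 and Timm13 was smaller than the SD of either, and the order of these 3 depended on the length used: per kb of the principal transcript, Tomm6 stood at 5004, Timm13 at 4601 and Tomm7 at 4497, all still below Timm8b. The same choice raised Pam16 from 835.2 to 3412 and Dnajc19 from 429.7 to 2626. Tomm22, the central receptor of the TOM complex, Tomm5 and Timm10 stood near 2000 per kb (2137 ± 336, 2007 ± 250 and 1989 ± 292). At the other end, 4 genes lay below the median gene: Tomm40l, a relative of the channel gene, with 83.2 ± 21.5 per kb, Timm8a1, whose human counterpart is mutated in deafness-dystonia syndrome, with 66.7 ± 36.5, Timm21, a TIM23 subunit, with 46.2 ± 30.7, and the antisense RNA Tomm6os with 6.40 ± 4.81. These values rest on annotated length and on reads that can be placed. Of all 50-base stretches of its transcripts, 72.8% in Tomm6 occurred in transcripts of another gene as well (among them Tomm6os and Usp49), 57.5% in Timm23, 56.3% in Tomm40l (shared with Nr1i3), 41.0% in Timm8a1, 39.4% in Tomm6os and 35.7% in Pam16. The strand setting of the counting is not given in the sources used here, so the reads of Tomm6 and of Tomm6os, which overlaps it on the opposite strand, cannot be told apart.

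**Figure D1:**
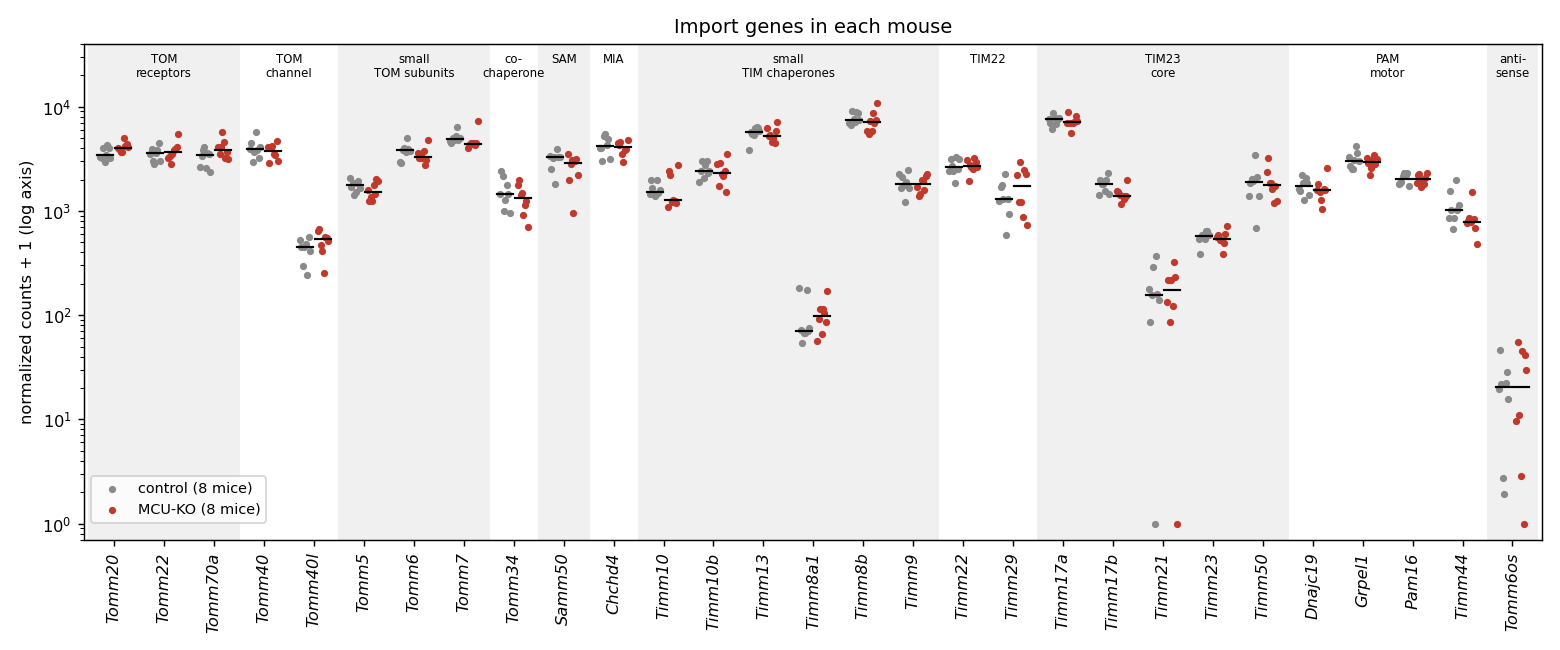
Normalized counts plus 1 on a log axis for the 29 import genes that passed the filter on low counts, in order of translocase. Each point is 1 mouse (grey: 8 control mice, red: 8 MCU-KO mice) and each bar is a group median. The genotypes overlap in every gene, and Timm21 is at 0 counts in 1 mouse of each genotype.

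Promoters of 28 import genes were available, as 250 bases before to 50 bases after the RefSeq start, and none was available for Tomm40l, Tomm7 and Timm21. The letters CCGGAAG or, on the other strand, CTTCCGG, the core bound by ETS-family factors such as GABPA, occurred in 10 of these 28 promoters (35.7%), against 9.93% of the 27025 genes with a promoter. Among tested genes the match was commoner, with 9 of 26 import genes against 19.9% of 9801 genes. The genes were Tomm70a, Tomm22, Tomm34, Timm8a2, Timm8b, Timm10, Timm10b, Timm23, Timm29 and Grpel1. Of the other motifs searched on both strands, the NRF1 core GCGCATGCG occurred in Timm13 alone (1.95% of all genes, 4.12% of tested genes) and the YY1 core AAGATGGCG in Timm50 alone (1.64% and 3.66%). TATAAA occurred in Dnajc19, Timm13 and Tomm5, that is, in 3 of 26 tested import genes, against 15.7% of all genes and 8.38% of tested genes. A match is a run of letters and says nothing of binding. The 100 bases before the start of 5 of these genes, 2 receptor genes of the outer membrane and 3 genes of the inner membrane routes, show where the ETS letters (in capitals) lie. The sequences are from RefSeq (GRCm38.p6), 5′ to 3′ along the gene, and positions are counted back from -1, the base before the start.
Tomm70a (chr16:57121614-57121713, plus strand): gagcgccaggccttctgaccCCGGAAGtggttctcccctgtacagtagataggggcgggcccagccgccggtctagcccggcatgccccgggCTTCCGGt
Tomm22 (chr15:79670768-79670867, plus strand): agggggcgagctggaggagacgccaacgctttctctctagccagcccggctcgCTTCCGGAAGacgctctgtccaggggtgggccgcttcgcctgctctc
Timm8b (chr9:50603801-50603900, plus strand): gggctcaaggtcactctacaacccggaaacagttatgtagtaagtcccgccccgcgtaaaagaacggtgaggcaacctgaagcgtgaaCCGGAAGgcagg
Timm10 (chr2:84826921-84827020, plus strand): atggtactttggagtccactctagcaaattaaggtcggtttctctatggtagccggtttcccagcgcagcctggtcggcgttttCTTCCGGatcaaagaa
Timm23 (chr14:32201892-32201991, minus strand): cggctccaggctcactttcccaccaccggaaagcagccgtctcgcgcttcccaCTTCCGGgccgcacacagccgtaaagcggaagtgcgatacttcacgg
In Tomm70a the letters begin at -80 and at -8, in Timm8b at -12, in Timm10 at -16 and in Timm23 at -47. In Tomm22 matches on both strands overlap, beginning at -47 and -44. Tomm22, Timm10 and Timm23 hold further matches within the first 50 bases after the start, which are not printed.

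The genotypes were then compared across all genes with edgeR's quasi-likelihood test, to ask whether loss of the uniporter in dopaminergic neurons came with a change in the import genes. None of the 29 import genes tested had an adjusted p under 0.05, where 22 of 12390 genes did (0.178%). By DESeq2 none did either, against 0.578% of genes. At an unadjusted p under 0.05, edgeR gave 1 import gene (Tomm70a), against 4.41% of all genes, and DESeq2 gave 3 (Tomm70a, Timm17b and Tomm20), against 5.37%. The genotypes overlapped in every import gene, while 0.258% of all genes were free of overlap. The log2 fold changes ran from -0.44 for Timm44 to 0.33 for Timm29 with a median of -0.05, against 0.00 for all genes, and 19 of the 29 lay below 0, against 49.6% of genes. The data also bound the size of a change: in 18 of the 29 genes the 95% confidence interval of the fold change stayed within 0.5 of 0 on the log2 scale, where 20.1% of all genes did so, and in 26 it stayed within 1. The intervals were wide for Timm8a1 (-1.23 to 1.36), Timm21 (-1.84 to 1.73) and Tomm6os (-1.84 to 2.49), which leaves a change of 2-fold in either direction within reach. In these 3 genes the coefficient of variation between control mice was 54.7%, 66.5% and 75.2%, where counting error alone gives 10.1%, 7.44% and 22.4%.

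**Figure D2:**
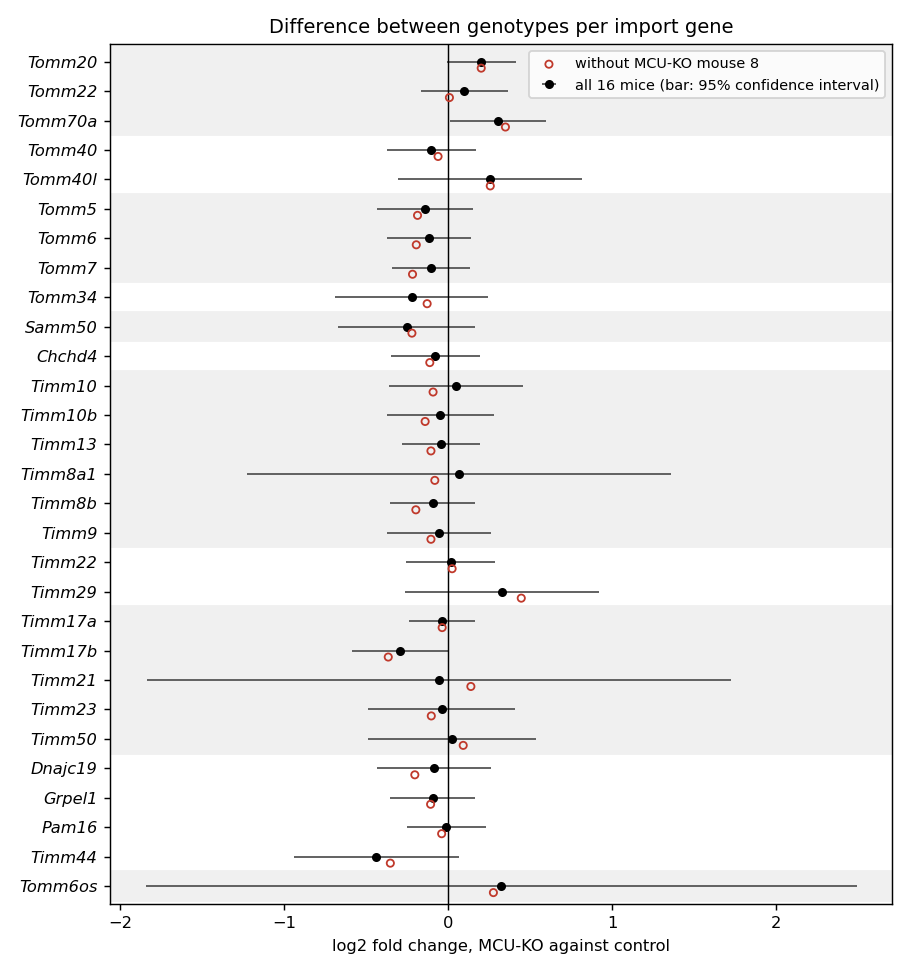
Log2 fold change of each import gene, MCU-KO against control (black points, all 16 mice), with a 95% confidence interval calculated from edgeR's F statistic. Red circles give the fold change without MCU-KO mouse 8. Tomm70a is the gene whose interval lies wholly on one side of 0, from 0.01 to 0.60.

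Tomm70a had the smallest unadjusted p of the import genes, and Tomm20 the third. Tomm70a (chromosome 16, 57121703 to 57156705, plus strand, GRCm38) codes for the receptor that docks chaperone-bound carrier precursors. Its level was 2352 to 4096 normalized counts in control mice (median 3469) and 3133 to 5742 in MCU-KO mice (median 3880). Of the MCU-KO mice, 3 stood above all control mice and 6 above the control median, and the groups overlapped. The log2 fold change was 0.30 ± 0.14 (SE; 95% interval 0.01 to 0.60; unadjusted p of 0.0424 and adjusted p of 1.0 by edgeR, adjusted p of 0.797 by DESeq2). Tomm20 (chromosome 8, 126930667 to 126945844, minus strand), the receptor for leader sequences, had 2953 to 4260 normalized counts in control mice (median 3403) and 3638 to 4971 in MCU-KO mice (median 4059). All 8 MCU-KO mice stood above the control median, yet 6 of them lay within the control range. Its log2 fold change was 0.20 ± 0.10 (95% interval -0.01 to 0.41; unadjusted p of 0.0602 and adjusted p of 1.0 by edgeR, adjusted p of 0.823 by DESeq2). Tomm22 had a log2 fold change of 0.10 ± 0.13, which was 0.01 without MCU-KO mouse 8. The 3 receptors tested thus lay above 0 with a median of 0.20, and none passed the threshold.

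The channel and the small subunits of the TOM complex lay on either side of 0. Tomm40 had 2980 to 5695 normalized counts in control mice (median 3892) and 2856 to 4652 in MCU-KO mice (median 3760.5), and its log2 fold change was -0.10 ± 0.13. Tomm40l had a log2 fold change of 0.26 ± 0.27. The small subunits Tomm5, Tomm6 and Tomm7, which steady the complex around the channel, had log2 fold changes of -0.14 ± 0.14, -0.12 ± 0.12 and -0.11 ± 0.11. In Tomm7 the mice were unevenly placed. The control mice had 4485 to 6341 normalized counts (median 4940), 6 of the MCU-KO mice lay below all of them, from 4008 to 4465, and MCU-KO mouse 8 stood above all others at 7223. Without that mouse the log2 fold change of Tomm7 was -0.22 ± 0.09 with an unadjusted p of 0.0242 (edgeR). The mouse was left out after its values were seen, so this p is a description and not a test. Leaving the same mouse out put 3 import genes at an unadjusted p under 0.05 (Tomm7, Tomm70a and Timm17b), against 4.47% of all genes, and none at an adjusted p under 0.05. Tomm34, a cytosolic cochaperone that holds precursors for import, had a log2 fold change of -0.22 ± 0.22.

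Beyond the outer membrane gate, Samm50 (chromosome 15, 84192241 to 84217267, plus strand), the core of the SAM complex, had 1802.5 to 3944 normalized counts in control mice (median 3271) and 963.3 to 3520 in MCU-KO mice (median 2914). In MCU-KO mouse 5 it was lower than in all control mice, and the rest of the MCU-KO mice lay within the control range. Its log2 fold change was -0.25 ± 0.20 (95% interval -0.67 to 0.16; unadjusted p of 0.221 and adjusted p of 1.0 by edgeR). Chchd4, the oxidoreductase of the MIA pathway that gives small intermembrane proteins their disulfide bonds, had 3042 to 5418 normalized counts in control mice and 2923 to 4765 in MCU-KO mice, with a log2 fold change of -0.08 ± 0.13.

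The small TIM chaperones form six-membered rings, of Timm9 with Timm10 and of Timm8 with Timm13, and 6 of the 7 genes were tested. Their log2 fold changes had a median of -0.05, 2 above 0 and 4 below. Timm8b had 6685 to 9104 normalized counts in control mice and 5520 to 10931 in MCU-KO mice (log2 fold change -0.09 ± 0.12), and Timm13 had 3827 to 6402 and 4444 to 7100 (-0.04 ± 0.11). Timm10 had a log2 fold change of 0.05 ± 0.20 but no MCU-KO mouse inside the control range. Its 8 control mice held 1381 to 1987 normalized counts (median 1530). In MCU-KO mice 1, 4, 5, 6 and 7 it held 1092, 1227, 1272, 1257 and 1178 counts, below all control mice, and in MCU-KO mice 2, 3 and 8 it held 2417, 2197 and 2766, above them all. The spread of Timm10 was thus wider in MCU-KO mice, with a coefficient of variation of 40.0% against 14.7% in control mice. This feature was singled out after its values were seen, and the difference in spread was not tested.

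At the TIM22 complex, Timm22, which forms the insertion channel for carriers, had 1854 to 3321 normalized counts in control mice and 1952 to 3230.5 in MCU-KO mice, and its log2 fold change of 0.02 ± 0.13 had an interval of -0.26 to 0.29. Timm29, a subunit that tethers TIM22 to the TOM complex, varied far more between mice. It ran from 580.9 to 2239 normalized counts in control mice (median 1294) and from 726.0 to 2917 in MCU-KO mice (median 1726), and its log2 fold change of 0.33 ± 0.29 was the highest of the import genes.

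Among the TIM23 genes, Timm17b had the smallest p. Timm17a and Timm17b code for alternative partners of Timm23 in the channel. Timm17b (chromosome X, 7899357 to 7908351, plus strand) had 1414 to 2294 normalized counts in control mice (median 1798) and 1171 to 1999 in MCU-KO mice (median 1403). Of the MCU-KO mice, 5 stood below all control mice and 7 below the control median, and MCU-KO mouse 8, at 1999, was the exception. The log2 fold change was -0.29 ± 0.14 (95% interval -0.59 to 0.00; unadjusted p of 0.0528 and adjusted p of 1.0 by edgeR, adjusted p of 0.808 by DESeq2), and without mouse 8 it was -0.36 ± 0.14 (unadjusted p of 0.0161, edgeR). This omission too was chosen after the values were seen, and its p only describes the data. Timm17a, with 6056 to 8793 normalized counts in control mice and 5542 to 8980 in MCU-KO mice, was among the steadiest import genes between mice, with a coefficient of variation of 11.0% in control mice and a log2 fold change of -0.04 ± 0.10. Timm23, the channel subunit, had 389.2 to 646.3 and 381.2 to 721.9 normalized counts (log2 fold change -0.04 ± 0.22). Timm50, the receptor that takes precursors over from the TOM complex, had a log2 fold change of 0.02 ± 0.25 with a coefficient of variation of 43.2% in control mice, where counting error alone gives 2.25%. Timm21 had no count in control mouse 5 and in MCU-KO mouse 8, and medians of 156.6 and 173.5 normalized counts.

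All 4 genes of the PAM motor lay below 0 without passing the threshold, where 19 of the 29 import genes and 49.6% of all genes lay below 0. Timm44 (chromosome 8, 4259731 to 4275913, minus strand), which holds the motor at the channel, had 663.4 to 1976 normalized counts in control mice (median 1013) and 476.2 to 1508 in MCU-KO mice (median 788.7). MCU-KO mouse 5 had the highest and mouse 8 the lowest level of the genotype, and 7 of the 8 MCU-KO mice lay below the control median. The log2 fold change of -0.44 ± 0.24 was the lowest of the import genes (95% interval -0.94 to 0.06; unadjusted p of 0.0841 and adjusted p of 1.0 by edgeR, adjusted p of 0.916 by DESeq2). Pam16 and Dnajc19, the paired J-type regulators of the motor, had log2 fold changes of -0.01 ± 0.12 and -0.08 ± 0.17, and Grpel1, the nucleotide exchange factor that resets it, had -0.09 ± 0.12. The antisense RNA Tomm6os had 0.92 to 44.9 normalized counts in control and 0 to 54.5 in MCU-KO mice.

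A further 22 genes that the symbol rule leaves out were all tested. They were genes of the import pathway or related to it, such as the matrix chaperone Hspa9, the processing peptidases, the metaxins, Gfer and Romo1. None had an adjusted or an unadjusted p under 0.05 by edgeR or DESeq2. Of their log2 fold changes 7 lay above 0 and 15 below, with a median of -0.01, and in 13 the 95% interval stayed within 0.5 of 0. The 3 with the smallest p were Timmdc1, a complex I assembly factor named for its likeness to the Timm17 family (0.64 ± 0.42, unadjusted p of 0.145), Grpel2, the relative of Grpel1 (-0.28 ± 0.35, unadjusted p of 0.427), and Mtch1, a carrier-like protein of the outer membrane (0.06 ± 0.08, unadjusted p of 0.452), each with an adjusted p of 1.0 by edgeR.

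Per kb of annotated exon, alternative or partner genes differed in level within the same library, by amounts that ranged widely from pair to pair. In each control mouse the log2 ratio of the levels per kb of exon (pseudocount 1) was taken for 8 pairs, and an exact two-sided sign-flip test over all sign patterns gave each pair p = 0.0078, the smallest it allows (adjusted over the 8 pairs, also 0.0078). Timm17a exceeded Timm17b by 0.44 ± 0.33 (SD, n = 8), Tomm40 exceeded Tomm40l by 3.43 ± 0.45 and Grpel1 exceeded Grpel2 by 3.58 ± 0.65. The steepest difference was between the rival partners of Timm13, with a log2 ratio of Timm8a1 to Timm8b of -7.95 ± 0.70. The ratio of Timm23 to Timm22 was -1.41 ± 0.36, Tomm20 exceeded Tomm70a by 1.14 ± 0.31 and Pam16 exceeded Dnajc19 by 0.97 ± 0.30. The ratio of Timm9 to its ring partner Timm10 was -2.20 ± 0.37, but per kb of the principal transcript it was -0.33 and no longer past the threshold. The choice of length moved other ratios without turning them or ending their call: per kb of the principal transcript, Tomm20 over Tomm70a was 0.43, Pam16 over Dnajc19 0.39, Grpel1 over Grpel2 2.84, Tomm40 over Tomm40l 4.77 and Timm23 over Timm22 -0.98. The sign-flip test takes each length as given, so an error in it shared by all mice would also count as a difference. Shared sequence is a further limit on these ratios. It was 57.5% in Timm23 against 1.02% in Timm22, 56.3% in Tomm40l against 4.59% in Tomm40, and 41.0% in Timm8a1 against 6.82% in Timm8b. In these pairs the gene with more shared sequence had the lower level, while Pam16 (35.7%) stood above Dnajc19 (6.86%). The part of reads that could not be placed was not tested.

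**Figure D3:**
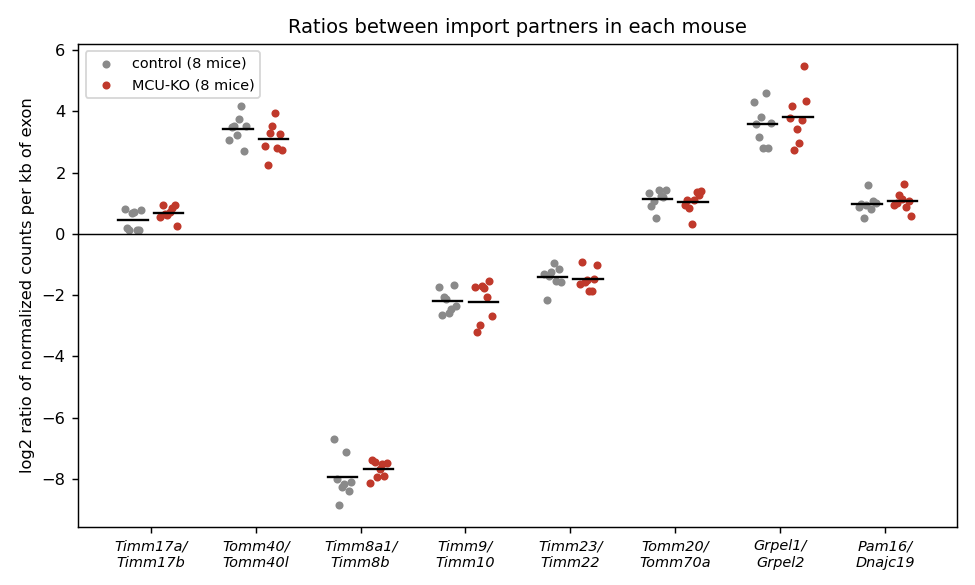
Log2 ratio of normalized counts per kb of exon within each mouse for 8 pairs of import genes (grey: 8 control mice, red: 8 MCU-KO mice, bars: group means). In control mice each pair lies wholly on one side of 0, from Timm8a1 far below Timm8b to Grpel1 far above Grpel2, and the genotypes overlap in every pair.

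None of these ratios differed between genotypes past the threshold. The smallest p belonged to Timm17a over Timm17b, which was 0.25 higher in MCU-KO mice (0.69 ± 0.23 against 0.44 ± 0.33, p = 0.106, adjusted p = 0.724, exact two-sided permutation test over the 12870 ways to split the mice). Without MCU-KO mouse 8, left out after its values were seen, the difference was 0.31. The same exact test then gave an unadjusted p = 0.0451, which is a description only. In the other 7 pairs the unadjusted p of this exact permutation test ran from 0.181 to 0.958.

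MCU-KO mouse 8, the library with the lowest total, stood apart in the import genes. It had the highest level of the MCU-KO mice in 14 of the 29 genes tested and the lowest in 5. Over the 10608 genes with a mean of at least 100 normalized counts it was highest in 13.8% and lowest in 13.9%. The 14 genes high in this mouse were Chchd4, Dnajc19, Pam16, Timm8a1, Timm8b, Timm9, Timm10, Timm10b, Timm13, Timm17b, Timm23, Tomm6, Tomm7 and Tomm22. The 5 low ones were Timm21, Timm29, Timm44, Tomm34 and Tomm70a. The high genes had shorter transcripts as a set, with a median of 1149 bases against 2944 for the rest of the 29 import genes tested. Chchd4 (3472 bases), Timm10b (3273) and Timm17b (2381) were the longest of them. Over the 27 import genes with a mean of at least 100 counts, the deviation of mouse 8 from the median of the other MCU-KO mice had a Spearman correlation with transcript length of -0.54, where the other 15 mice gave -0.26 to 0.42 against the mice of their own genotype. Over all 10608 genes the same correlation in mouse 8 was -0.13, where the other 15 mice gave -0.09 (control mouse 7) to 0.12 (MCU-KO mouse 4). These are correlations across genes of 1 library, which share its depth and preparation, and are given as a description.

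In steps of length, the median log2 deviation of mouse 8 was 0.56 in 7 import genes with transcripts under 1000 bases, 0.43 in 7 of 1000 to 2000 bases, 0.02 in 8 of 2000 to 4000 and -0.10 in 5 over 4000. Over all genes of these length classes the medians were 0.30, 0.04, -0.05 and -0.08, in the same order. The summed CPM of the dopaminergic markers was 11530 in this mouse. That was below all control mice (12250 to 15250) and within the range of the MCU-KO mice (10750 to 17430). The astrocyte markers summed to 644, within the control range of 326 to 665.4, and the oligodendrocyte markers to 4679, within 2788 to 5548. The endothelial markers summed to 18.54, within the control range of 7.21 to 35.09. The microglial markers summed to 136.0, above all control mice (43.03 to 131.9) and within the range of the MCU-KO mice (32.6 to 246.1). The 3 markers of GABA neurons summed to 78.06 CPM, the lowest of all 16 mice (108.6 to 256.2 in control mice). Slc6a3, the dopamine transporter gene, had 34306 normalized counts, the lowest of the MCU-KO mice and below the control range of 53789 to 85110. None of the other dopaminergic markers was lowest in mouse 8 among the MCU-KO mice: Slc18a2 was lowest in mouse 2 and the rest in mouse 6. The part of these differences in the pattern was not tested. Without mouse 8 the median log2 fold change of the import genes was -0.10 in place of -0.05, and Timm10, Timm8a1 and Timm21 changed sign, none of them past the threshold. The part of the low library total in this pattern was not tested.

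**Figure D4:**
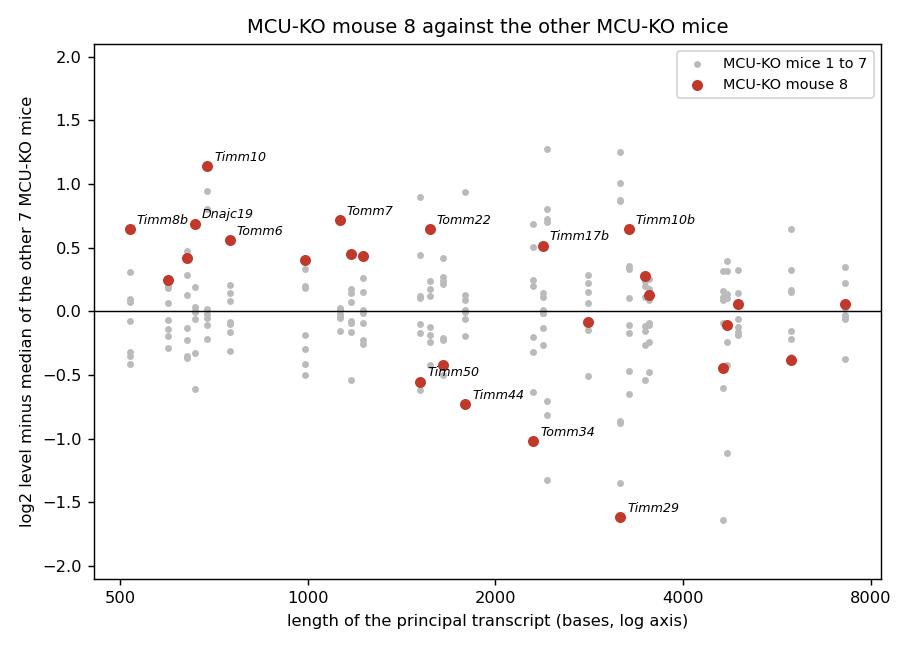
Log2 level of each import gene in 1 MCU-KO mouse minus the median of the other 7, against the length of the principal transcript (log axis), for genes with a mean of at least 100 normalized counts. Red points are MCU-KO mouse 8 and grey points the other MCU-KO mice; Timm21, with no count in mouse 8, has no red point. Red points lie mostly above 0 among short transcripts, with medians of 0.56 under 1000 bases and -0.10 over 4000 bases.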

How the data were processed

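RNA of 8 control and 8 MCU-KO mice was sequenced as polyA libraries from RiboTag immunoprecipitates. Per the labels and the study's methods, the authors trimmed the reads, mapped these to mm10 (STAR), ran HTSeq and deposited whole-number counts per Ensembl gene without normalization. Tool versions, strand setting and annotation release are not given in the sources used here. Symbols, coordinates and lengths were taken from GENCODE M21 (GRCm38, the build of mm10). The union of annotated exons gave the main length, and the principal transcript the alternative. The members and gene lists were chosen with earlier results of these data known.

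Genotypes were compared with edgeR 4.0.16 in R 4.3.3 (filterByExpr, TMM, glmQLFit, glmQLFTest, Benjamini-Hochberg over 12390 genes, threshold 0.05). Log2 fold changes are MCU-KO against control with their SE. DESeq2 1.42.0 gave size factors and an alternative fit. The scripts were tested on simulated data. Ratios used a pseudocount of 1 and exact tests. Every member is named, and all statistics are given for the 5 tested members with the smallest p and, of the other import genes, for the 3 with the smallest p. A feature outside this rule is marked. Shared sequence is the share of 50-base stretches also present in transcripts of another gene. Promoters came from RefSeq (GRCm38.p6). Python 3.11.15, scipy 1.17.1 and matplotlib 3.10.9 were used. Alternatives were DESeq2, its size factors in edgeR, no filter, at least 10 counts in every library, a replicate block, the omission of each mouse, an Xist covariate for X-linked members and pseudocounts of 0.5 and 5. The omission of MCU-KO mouse 8 for single genes and ratios and the principal transcript were chosen after seeing the data.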

Additional observations from a re-analysis of the deposited data

Results flagged for a closer look

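In each genotype the 8 mice were checked, gene by gene, for a single mouse that stands further from its nearest neighbour than Dixon's 95% limit allows. This was the case in 6 of the 58 groups examined, where 1 in 20 would be about 2.9. That figure takes normally distributed values and independent groups. These groups are normalized counts from the same 16 libraries, so the 2 numbers do not test for an excess. MCU-KO mouse 8 was high in Tomm7 (7223 normalized counts, the next mouse 4490) and in Timm17b (1999, the next 1547). MCU-KO mouse 5 was high in Timm44 (1508, the next 858.2). Control mouse 6 was high in Tomm7 (6341, the next 5239). Control mouse 1 was low in Timm13 (3827, the next 5394), and control mouse 2 was low in Timm23 (389.2, the next 533.4). The cause was not tested in any of them.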

How the results depend on the processing

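No import gene had an adjusted p under 0.05 in any alternative run. The lowest adjusted p of an import gene was 0.893 over the fits that each left out 1 mouse and 0.334 over the other edgeR and DESeq2 fits. The number of genes called over the whole table was 22, and 90 by DESeq2. With a replicate block for the mouse number it was 14, Timm10 moved to -0.0337 and Tomm6os to -0.03599 (log2 fold changes that changed sign), and the other import genes kept their direction. Same-numbered mice did not deviate together (correlations of -0.096 to 0.102 over 7371 genes, and 1 of 8 control mice correlated best with its own number), so the numbers do not pair the mice. Leaving out each mouse in turn gave 18 to 24 genes called, 0 to 0 import genes called and a median log2 fold change of the import genes from -0.10 to -0.01, the former without MCU-KO mouse 8. Without that mouse Timm10 was at -0.09155, Timm8a1 at -0.08095 and Timm21 at 0.14, each with changed sign. Per kb of the principal transcript the ratio of Timm9 to Timm10 was -0.33 and lost its call, and the ratios of Tomm20 to Tomm70a (0.43), Pam16 to Dnajc19 (0.39), Grpel1 to Grpel2 (2.84) and Tomm40 to Tomm40l (4.77) moved but kept direction and call. The other alternatives (DESeq2 size factors in edgeR, both filters, pseudocounts and the Xist covariate) turned no direction and crossed no threshold. The cause of these shifts was not tested, apart from the length, which that alternative itself replaces. The intervals of Timm21, Timm8a1 and Tomm6os exceed 1 on the log2 scale, and the spread between mice in them is wider than counting error.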
